A study of Homo sapiens with 6 samples.

Results

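The genes described are 32 targets and negative regulators of the tumour suppressor p53, chosen by name from the deposited tables, in which 32192 genes are listed. All 32 symbols were found once each in the count table and in the FPKM table, and all 32 passed the filter on low counts that left 16971 genes for testing. The gene that encodes p53 itself is not among the members and was not analysed here. A549 is an established line from a human lung adenocarcinoma. It was transfected transiently with the pIRES-hrGFP-1a plasmid carrying the APEX1 coding sequence fused to a FLAG tag (APEX1-OE, 3 libraries), or with the control plasmid (Ctrl, 3 libraries). Both groups are thus plasmid-transfected, and no untransfected cells were analysed here. The labels do not say whether the 3 replicates of a group came from separate cultures, so p values measure only the spread between these libraries. The study asked whether APEX1, an endonuclease of base excision repair that also binds RNA, alters proliferation and apoptosis of A549 cells, and p53 target genes act in both processes.

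p53 is a transcription factor that is held at a low level by MDM2, a ubiquitin ligase, and by its relative MDM4. When DNA is damaged, p53 is released from them and activates genes for cell cycle arrest, DNA repair, apoptosis and metabolism. MDM2 is itself one of these genes and closes a negative feedback loop. A549 cells are known to carry the wild-type form of p53. The tables hold no sequence of the cells, so that status was not checked here.

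p53 binds DNA as a tetramer on a pair of half-sites of 10 bases, each with a core of C and G around an A or T pair. The GRCh38 sequence within 2500 bases on either side of the start of each gene's canonical transcript (GENCODE release 44) was searched for 2 consensus p53 half-sites separated by 0 to 13 bases, on both strands, with the C and G of each core kept. A match with no mismatch was found for 5 of the 32 members (15.6%), against 0.609% of the 16746 tested genes with an annotation. With at most 1 mismatch the share was 25% of the members against 7.24%, and with at most 2 mismatches 71.9% against 39.8%. The members were chosen by name as targets and regulators of p53, so these shares describe the list and do not test it. The following matches are a selection, taken from members whose values are given in detail and from the matches without a mismatch. Matches of other members given in detail, such as BAX and FAS, are not shown. They are written along the strand of the gene, and the capitals mark the 4 core bases of each half-site.
CDKN1A (chr6:36676449-36676468, plus strand): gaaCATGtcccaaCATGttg
MDM2 (chr12:68808923-68808942, plus strand): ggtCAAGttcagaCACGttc
GADD45A (chr1:67686775-67686794, plus strand): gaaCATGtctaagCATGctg
CCNG1 (chr5:163437926-163437945, plus strand): gcaCAAGcccaggCTAGtcc
PLK2 (chr5:58462274-58462293, minus strand): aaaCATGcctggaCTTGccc
ZMAT3 (chr3:179070188-179070207, minus strand): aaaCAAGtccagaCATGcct
TIGAR (chr12:4321615-4321636, plus strand): agaCATGtccacagaCTTGtct
DDB2 (chr11:47214979-47214999, plus strand): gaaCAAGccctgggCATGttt
The matches of PLK2, ZMAT3, TIGAR and DDB2 had no mismatch, those of GADD45A and CCNG1 had 1, and those of CDKN1A and MDM2 had 2. The remaining match without a mismatch, that of ACER2, is not shown. The centre of the CDKN1A match lay 2256 bases before the start of its canonical transcript, and that of PLK2 lay 2197 bases before the start. The centres of those of DDB2, TIGAR, GADD45A and ZMAT3 lay 15, 412, 1583 and 1612 bases after it. A match describes the letters of the window and is not a measured binding site.

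The libraries held between 28131955 and 41009197 counts. APEX1 stood at 1272, 1185 and 1300.2 CPM in APEX1-OE against 244, 243 and 214 CPM in Ctrl. CPM are counts scaled to the size of the library after TMM normalization, and values of single libraries are given in the order of replicates 1, 2 and 3 throughout. The conditions were not the main difference between the libraries. The first principal component of all tested genes held 72.6% of the variance and separated replicate 1 of APEX1-OE and replicates 1 and 2 of Ctrl (library set A) from replicates 2 and 3 of APEX1-OE and replicate 3 of Ctrl (library set B). APEX1-OE replicate 1 lay farthest out, at -58.5 on this component, against -32.7 and -31.1 for Ctrl replicates 1 and 2 of the same set. The labels name no batch that matches these sets. Of the 8 markers of epithelial cells and of A549, 7 were above 1 FPKM in at least 1 library, with KRT8 at a mean of 3069 FPKM in Ctrl, and EPCAM stayed under 1 FPKM. Among alveolar type II markers, SFTPB, SFTPC and NKX2-1 stayed under 1 FPKM in every library, while LAMP3 lay between 3.92 and 7.12 FPKM. The summed markers of fibroblasts lay between 0.820 and 1.43 FPKM, and those of endothelial cells between 0.030 and 0.040 FPKM. The summed immune markers lay between 1.01 and 1.54 FPKM, most of it from CD68, at 1.0 to 1.49 FPKM.

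Several p53 target genes were abundant in both groups, 6 of the 32 lying above the 95th percentile of the tested genes in Ctrl. Genes are compared in FPKM, which is scaled by transcript length, though the lengths used are not given in the sources. Each group mean also mixes libraries of sets A and B, between which most members differed, as described below. The order of levels is therefore approximate. CDKN1A, the inhibitor of cyclin-dependent kinases also called p21, had the highest level of the 32. It stood at 403 ± 108 FPKM over the APEX1-OE libraries and 394 ± 74.3 FPKM over the Ctrl libraries (SD, n = 3). This placed it at percentile 99.2 of the tested genes in Ctrl. GDF15, a secreted stress cytokine, followed with 223 ± 73.1 FPKM over the APEX1-OE libraries and 224 ± 49.7 FPKM over the Ctrl libraries (SD, n = 3). BAX, a pore-forming protein of the mitochondrial outer membrane, had 222 ± 68.7 FPKM over the APEX1-OE libraries and 223 ± 49.8 FPKM over the Ctrl libraries (SD, n = 3), so GDF15 and BAX did not differ beyond their spread. PHLDA3, which restrains AKT, was at a mean of 113 FPKM in Ctrl, the nuclease AEN at 66.3 FPKM and the death receptor TNFRSF10B at 66.1 FPKM. At the other end, the ceramidase ACER2 was at 0.737 FPKM, MDM4 at 1.41 FPKM, the RNA-binding zinc finger protein ZMAT3 at 1.51 FPKM and SPATA18, a factor of mitochondrial quality control, at 2.39 FPKM. These 4 genes were the only members below the median of the tested genes, and ACER2 had the fewest counts of the members in every library, down to 32 in APEX1-OE replicate 1. MDM2 stood at 12.7 FPKM in Ctrl, above MDM4 by more than the spread of either gene.

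**Figure D1:**
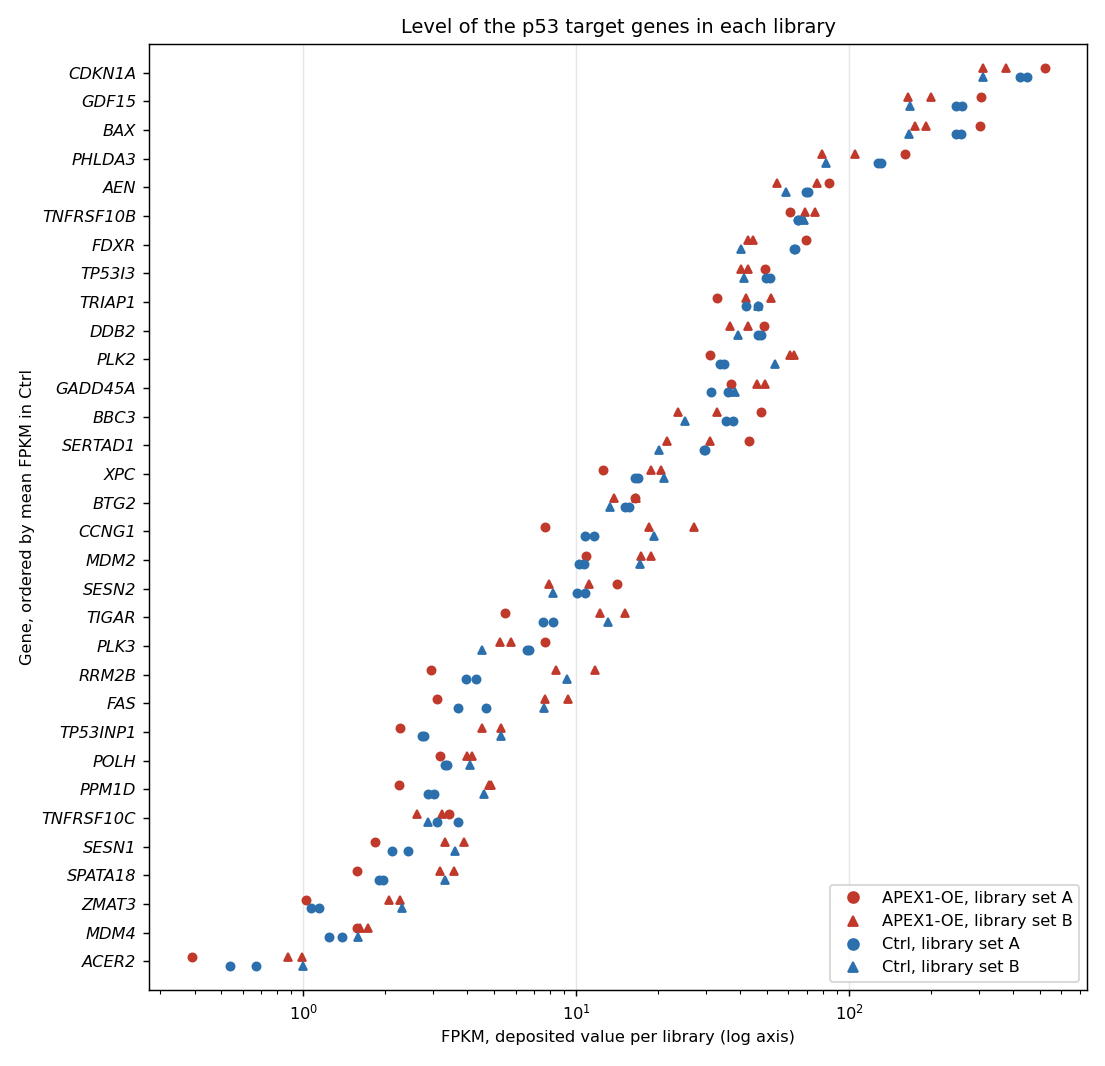
Deposited FPKM (log axis) of the 32 genes in each of the 6 libraries, ordered by the mean in Ctrl; red marks APEX1-OE, blue Ctrl, circles library set A and triangles library set B. CDKN1A has the highest Ctrl mean (394 FPKM) and ACER2 the lowest (0.737 FPKM), and for most genes circles and triangles part more clearly than red and blue.

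No p53 target gene differed between APEX1-OE and Ctrl at an adjusted p under 0.05 (0 of 32 by the quasi-likelihood test of edgeR after adjustment by Benjamini-Hochberg, against 0.00589% of all tested genes). The adjusted p was 1.0 for each of the 32, and the smallest unadjusted p was 0.119, for GADD45A. In bulk RNA, fewer cells that express a gene and less of its RNA per cell cannot be told apart. Before adjustment, 0 of 32 had a p under 0.05, against 0.695% of all tested genes (0.395% higher and 0.301% lower in APEX1-OE), and DESeq2 and limma-voom likewise gave 0 at both thresholds. The log2 fold changes lay between -0.12 for TRIAP1 and 0.36 for RRM2B, with a median of 0.11, beside a median of 0.033 over all tested genes. They were above 0 for 26 of the 32 members (81.2%) and for 57.5% of all tested genes. Without APEX1-OE replicate 1 the number above 0 was 17 of 32, with a median of 0.0043, and without Ctrl replicate 3 it was 18 of 32, with a median of 0.066. With the correction for GC content described below it was 21 of 32, with a median of 0.025. For each member whose 95% interval from this fit is printed below, the lowest and highest value with 1 library left out stand beside it. Other log2 fold changes below have no such range. For 28 of the 32 members the difference between the group means in CPM was smaller than the SD of both groups, and the others were GADD45A, MDM4, PLK2 and TRIAP1. The 95% interval had a median half-width of 0.71 on the log2 scale, and for CCNG1, FAS, RRM2B, SERTAD1 and ZMAT3 it still held a 2-fold change. Changes smaller than these intervals were not detectable with this spread between libraries.

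**Figure D2:**
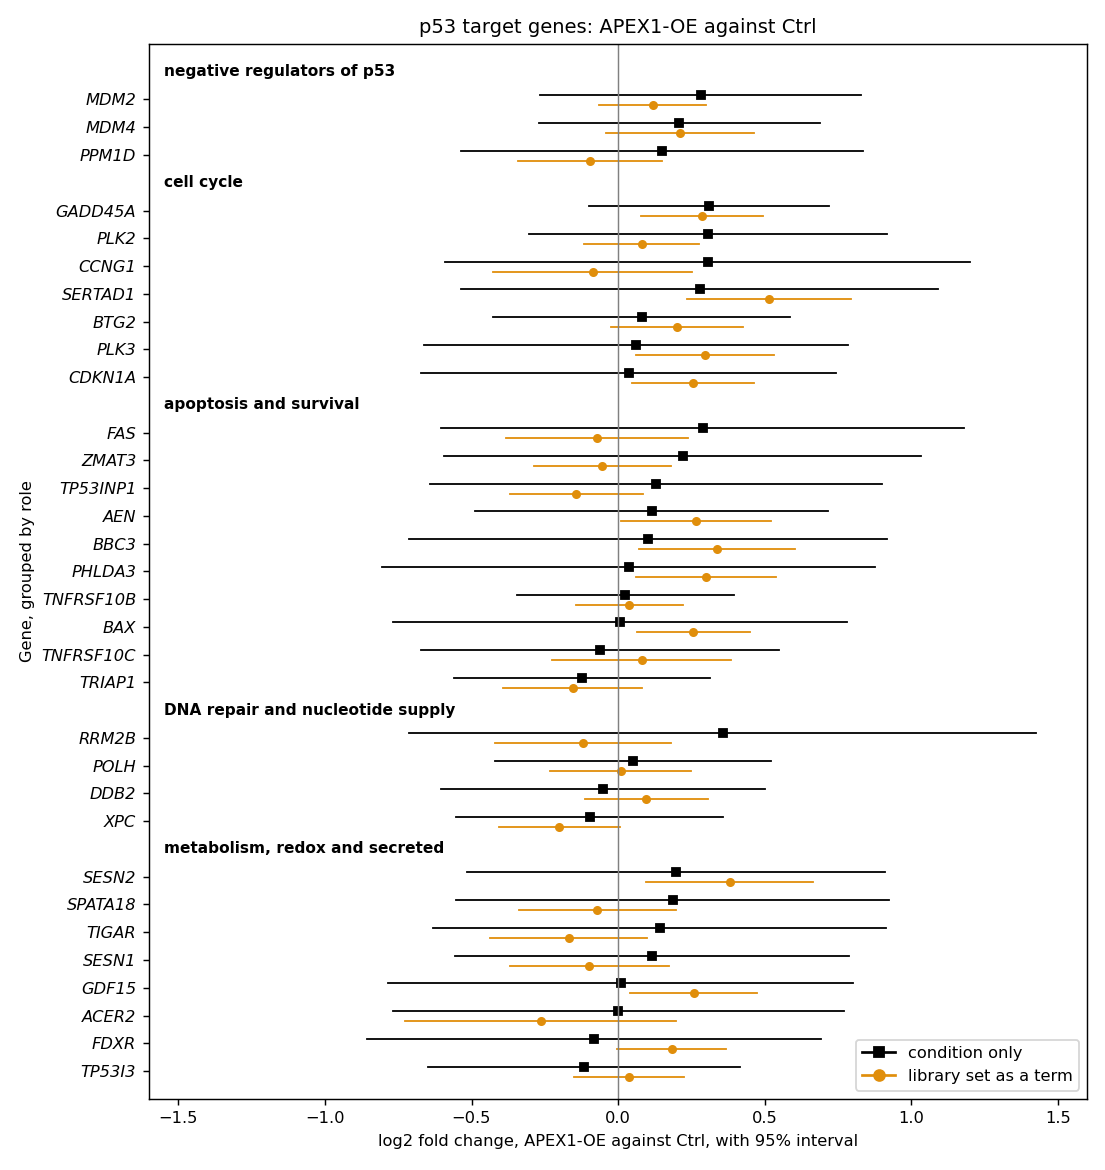
Log2 fold change of each gene, APEX1-OE against Ctrl, with its 95% interval, grouped by role. Black squares are from the fit on the condition alone, where every interval holds 0. Orange circles are from the fit that adds the library set, where the median half-width of the interval falls from 0.71 to 0.237. The sets were read from the same counts, so the orange intervals may be too narrow.

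Among the negative regulators of p53, MDM2 (ENSG00000135679.21, chromosome 12, 68808177 to 68845544, plus strand of GRCh38) stood at 191, 257 and 271 CPM in APEX1-OE against 165, 175 and 252 CPM in Ctrl. All 3 libraries of set B were above all 3 of set A, and the conditions overlapped. The log2 fold change of MDM2 was 0.28 (95% interval -0.27 to 0.83, from 0.15 without Ctrl replicate 1 to 0.50 without Ctrl replicate 3), and 0.12 with the correction for GC content. MDM4 (ENSG00000198625.12, chromosome 1, 204516379 to 204558120, plus strand) was at 22.2, 20.7 and 18.7 CPM in APEX1-OE against 16.1, 18.3 and 18.8 CPM in Ctrl. Here 2 APEX1-OE libraries lay above every Ctrl library, and the third lay just under Ctrl replicate 3. Its log2 fold change was 0.21 (95% interval -0.27 to 0.69, from 0.13 without Ctrl replicate 1 to 0.27 without APEX1-OE replicate 3). PPM1D, a phosphatase that switches off the damage signal to p53, was at 22.8 ± 6.81 CPM over the APEX1-OE libraries and 20.6 ± 4.37 CPM over the Ctrl libraries (SD, n = 3). In the annotation, 9.45% of the exon bases of MDM2 also belong to an RNA on the opposite strand, and whether the counting used strand is not given in the sources.

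The cell cycle genes were all above 0 in log2 fold change (7 of 7, with a median of 0.28), and none was called. Without APEX1-OE replicate 1 the number above 0 was 3 of 7, with a median of -0.068, and without Ctrl replicate 3 it was 4 of 7. CDKN1A (ENSG00000124762.13, chromosome 6, 36676460 to 36687337, plus strand), whose product halts the cycle at G1, stood at 1805, 1105 and 879.8 CPM in APEX1-OE against 1427, 1372 and 897 CPM in Ctrl. The lowest and the highest CDKN1A values of the 6 both belonged to APEX1-OE. The log2 fold change was 0.036 (95% interval -0.67 to 0.74, from -0.32 without APEX1-OE replicate 1 to 0.24 without APEX1-OE replicate 3), which allows for a change between 0.628-fold and 1.67-fold. GADD45A (ENSG00000116717.11, chromosome 1, 67685201 to 67688334, plus strand), a stress sensor that inhibits the G2 kinase CDK1, had 76.3, 85.9 and 78.3 CPM in APEX1-OE against 68.2, 60.1 and 65.8 CPM in Ctrl. It was the only 1 of the 32 members whose groups did not overlap in CPM, all 3 APEX1-OE libraries lying above all 3 Ctrl libraries, a pattern seen in 1.38% of all tested genes. The reverse order was seen in 0 members and in 2.01% of all tested genes, and either order in 3.39%. In FPKM its groups did overlap, at 37.0, 49.2 and 46.1 FPKM in APEX1-OE against 36.0, 31.2 and 38.1 FPKM in Ctrl (exact two-sided permutation test, p = 0.2). The log2 fold change of GADD45A was 0.31 (95% interval -0.10 to 0.72, from 0.25 without Ctrl replicate 2 to 0.34 without Ctrl replicate 1). It stayed above 0 in each of the other 20 settings tried, between 0.25 and 0.34. MDM2 and MDM4 also stayed above 0 in all of these settings, with lowest values of 0.034 and 0.029. The settings use the same libraries and are not independent of each other.

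Other cell cycle members varied more between libraries. SERTAD1, a regulator of CDK4 and of E2F transcription, was at 126, 76.5 and 51.5 CPM in APEX1-OE against 79.5, 80.3 and 49.3 CPM in Ctrl. A single library, APEX1-OE replicate 1, lay far above the rest, and without it the log2 fold change of SERTAD1 turned from 0.28 to -0.14. PLK2, a stress-induced kinase that acts on centriole duplication, was at 126, 210.2 and 211 CPM in APEX1-OE against 126, 133 and 184 CPM in Ctrl. The highest pair of these was in APEX1-OE, but APEX1-OE replicate 1 was level with Ctrl replicate 1, and the log2 fold change was 0.31 (95% interval -0.30 to 0.92, from 0.19 without Ctrl replicate 1 to 0.49 without Ctrl replicate 3). CCNG1, cyclin G1, had the largest spread of the group, with 26.2, 53.3 and 75.9 CPM in APEX1-OE against 36.4, 34.3 and 55.1 CPM in Ctrl. BTG2, an antiproliferative factor that promotes mRNA decay, stood at 61.7, 52.7 and 42.4 CPM in APEX1-OE against 53.8, 52.6 and 41.8 CPM in Ctrl, with both groups overlapping. PLK3, another polo-like kinase, was at 26.4, 16.7 and 14.9 CPM in APEX1-OE against 21.3, 21.3 and 13 CPM in Ctrl, again highest in APEX1-OE replicate 1. Without APEX1-OE replicate 1, PLK2 reached a log2 fold change of 0.49 (unadjusted p = 0.0417) and CCNG1 0.60 (unadjusted p = 0.0463). They were the only members under 0.05 there, against 7.61% of all tested genes, and their adjusted p from edgeR was 0.507. The APEX1-OE libraries left in that fit both belong to set B, where PLK2 and CCNG1 were higher than in set A. With the library set as a term PLK2 was at 0.080 and CCNG1 at -0.087 over all libraries. Without APEX1-OE replicate 1 and with that term they were at 0.16 and 0.19.

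**Figure D3:**
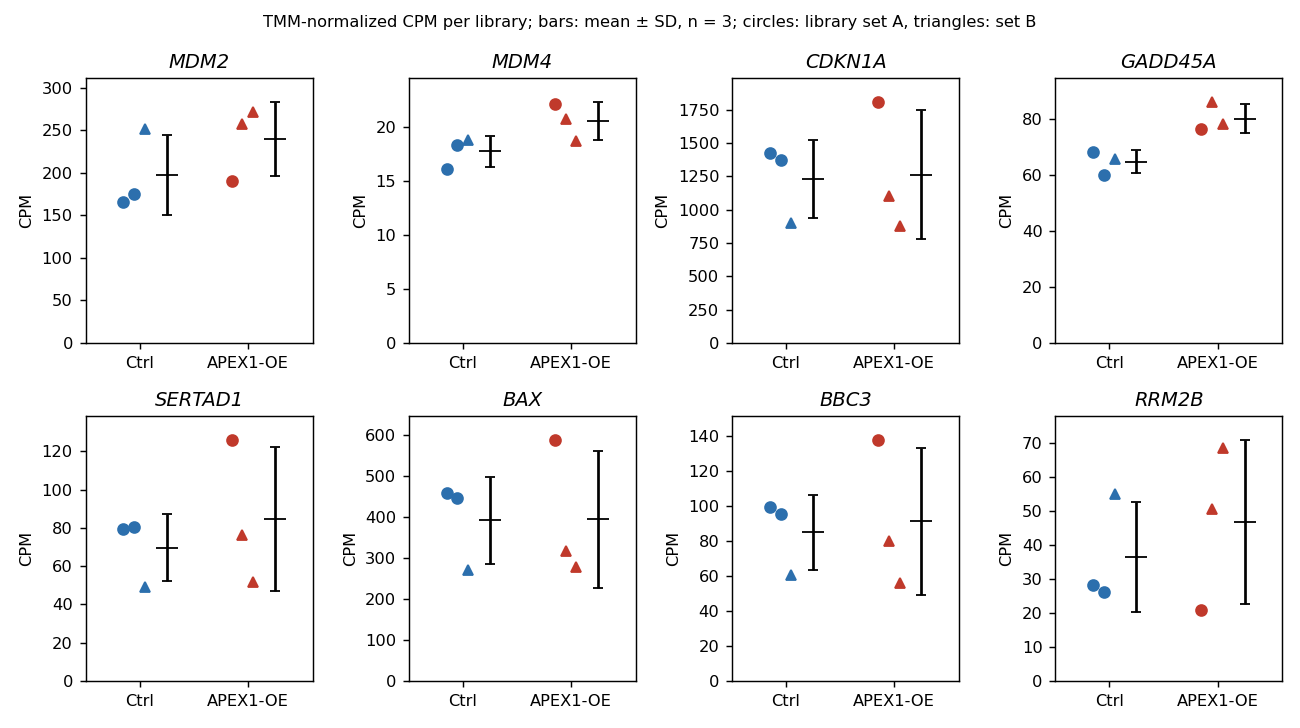
TMM-normalized CPM of 8 genes in each library, with the mean ± SD of each group (n = 3) as bars; circles are library set A and triangles library set B. In MDM2, CDKN1A, BAX, BBC3 and RRM2B the marker shape separates the points better than the group does, while in GADD45A the 3 APEX1-OE points lie above the 3 Ctrl points.

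The genes of apoptosis did not pass the test in either direction (0 of 10, with 8 of 10 above 0 and a median log2 fold change of 0.069). The number above 0 was 4 of 10 without APEX1-OE replicate 1 and also without Ctrl replicate 3. BAX (ENSG00000087088.19, chromosome 19, 48954815 to 48961798, plus strand) stood at 586, 317 and 278 CPM in APEX1-OE against 459, 447 and 269.8 CPM in Ctrl. BBC3, the BH3-only protein PUMA that releases BAX, was at 138, 79.9 and 56.2 CPM in APEX1-OE against 99.2, 95.3 and 60.4 CPM in Ctrl. In both genes APEX1-OE replicate 1 was the highest library, while the lowest was Ctrl replicate 3 for BAX and APEX1-OE replicate 3 for BBC3. Their log2 fold changes were 0.0062 (95% interval -0.77 to 0.78, from -0.41 without APEX1-OE replicate 1 to 0.20 without APEX1-OE replicate 3) for BAX and 0.10 (95% interval -0.71 to 0.92, from -0.33 without APEX1-OE replicate 1 to 0.35 without APEX1-OE replicate 3) for BBC3. FAS, the receptor of the FAS ligand, ran the other way across the libraries, with 11.5, 24.3 and 28.7 CPM in APEX1-OE against 12.6, 16.3 and 23.9 CPM in Ctrl. The log2 fold change of FAS was 0.29 (95% interval -0.60 to 1.18, from 0.024 without APEX1-OE replicate 3 to 0.57 without Ctrl replicate 3). It was 0.014 with the correction for GC content and -0.072 with the library set as a term. TNFRSF10B, the TRAIL receptor DR5, was the steadiest member, with 346, 364 and 323 CPM in APEX1-OE against 340.0, 348 and 328 CPM in Ctrl. Its highest library was 1.12 times its lowest, against a median of 1.94 over the 32 members, and its log2 fold change was 0.025 (95% interval -0.35 to 0.40, from -0.017 without APEX1-OE replicate 2 to 0.067 without APEX1-OE replicate 3). TNFRSF10C, a decoy receptor for TRAIL, was at 9.45 ± 2.18 CPM over the APEX1-OE libraries and 9.85 ± 1.70 CPM over the Ctrl libraries (SD, n = 3).

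PHLDA3 stood at 598, 331 and 244 CPM in APEX1-OE against 445, 442 and 256 CPM in Ctrl. The nuclease AEN stood at 363, 278 and 193 CPM in APEX1-OE against 279, 279.9 and 211 CPM in Ctrl. Both were highest in APEX1-OE replicate 1 and lowest in APEX1-OE replicate 3, and their groups overlapped. In the annotation, 18.4% of the exon bases of PHLDA3 belong to another RNA on the same strand. ZMAT3 was at 13.4, 23.0 and 24.4 CPM in APEX1-OE against 13.8, 13.1 and 25.4 CPM in Ctrl, low in set A and high in set B. TRIAP1, an inhibitor of apoptosome formation, had the lowest log2 fold change of all members, -0.12 (95% interval -0.56 to 0.31, from -0.23 without APEX1-OE replicate 3 to -0.058 without APEX1-OE replicate 1). TP53INP1, which promotes p53 activity and autophagy, was at 27.2 ± 8.43 CPM over the APEX1-OE libraries and 24.9 ± 8.54 CPM over the Ctrl libraries (SD, n = 3).

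The genes of DNA repair and nucleotide supply were divided, with 2 of 4 above 0, and 3 of 4 without APEX1-OE replicate 1. XPC (ENSG00000154767.14, chromosome 3, 14145147 to 14178621, minus strand), which recognises distorted DNA in nucleotide excision repair, stood at 66.4, 91.5 and 81.4 CPM in APEX1-OE against 82.1, 80.8 and 93.3 CPM in Ctrl. DDB2, which recognises ultraviolet lesions and hands them to XPC, stood at 126, 93.2 and 77.6 CPM in APEX1-OE against 109, 114 and 84.4 CPM in Ctrl. Neither gene separated the groups, with log2 fold changes of -0.10 (95% interval -0.55 to 0.36, from -0.21 without APEX1-OE replicate 2 to 0.0024 without APEX1-OE replicate 1) for XPC and -0.052 (95% interval -0.61 to 0.50, from -0.28 without APEX1-OE replicate 1 to 0.095 without APEX1-OE replicate 3) for DDB2. In the annotation, 24.6% of the exon bases of XPC overlap its antisense RNA. RRM2B, the small subunit of ribonucleotide reductase that p53 induces for repair, varied most of all members, with 20.8, 50.5 and 68.6 CPM in APEX1-OE against 28.1, 26.1 and 55.1 CPM in Ctrl. Its highest library was 3.29 times its lowest, and both were APEX1-OE libraries, so the largest log2 fold change of the 32, 0.36 (95% interval -0.71 to 1.43, from -0.031 without APEX1-OE replicate 3 to 0.78 without Ctrl replicate 3), came with the widest interval. RRM2B was at 0.021 with the correction for GC content and at -0.12 with the library set as a term. POLH, a polymerase that copies past ultraviolet lesions, was at 16.2 ± 0.895 CPM over the APEX1-OE libraries and 15.6 ± 0.935 CPM over the Ctrl libraries (SD, n = 3).

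Among the genes of metabolism, redox control and secretion, 6 of 8 were above 0, with a median log2 fold change of 0.062. The number above 0 was 4 of 8 without APEX1-OE replicate 1 or without APEX1-OE replicate 3, and 3 of 8 with the correction for GC content. GDF15 was at 505, 279.9 and 224 CPM in APEX1-OE against 393, 379.6 and 231 CPM in Ctrl. FDXR, the mitochondrial ferredoxin reductase, was at 226, 122 and 114 CPM in APEX1-OE against 187, 192 and 109 CPM in Ctrl. Both were high in the libraries of set A and low in those of set B. The log2 fold changes were 0.0083 (95% interval -0.78 to 0.80, from -0.42 without APEX1-OE replicate 1 to 0.23 without APEX1-OE replicate 3) for GDF15 and -0.081 (95% interval -0.85 to 0.69, from -0.48 without APEX1-OE replicate 1 to 0.094 without APEX1-OE replicate 3) for FDXR. The sestrins, which restrain mTORC1 under stress, stood at opposite ends of this pattern. SESN1 was at 9.98, 15.2 and 17.4 CPM in APEX1-OE against 12.2, 10.7 and 16.5 CPM in Ctrl. SESN2 was at 67.4, 44.9 and 31.1 CPM in APEX1-OE against 47.1, 44.9 and 32.9 CPM in Ctrl. SESN1 was lowest, and SESN2 highest, in APEX1-OE replicate 1. TP53I3, a quinone oxidoreductase, stood at 138, 101 and 92.6 CPM in APEX1-OE against 132, 131 and 96.5 CPM in Ctrl, with a log2 fold change of -0.12 (95% interval -0.65 to 0.41, from -0.32 without APEX1-OE replicate 1 to -0.0055 without APEX1-OE replicate 3). TIGAR, a phosphatase that lowers glycolytic flux, was at 36.1 ± 13.6 CPM over the APEX1-OE libraries and 32.8 ± 8.23 CPM over the Ctrl libraries (SD, n = 3). ACER2 was at 2.01 ± 0.694 CPM over the APEX1-OE libraries and 2.01 ± 0.527 CPM over the Ctrl libraries, and SPATA18 at 14.6 ± 4.58 CPM over the APEX1-OE libraries and 12.8 ± 3.44 CPM over the Ctrl libraries (SD, n = 3).

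The library sets separated more members than the conditions did. Of the 32 genes, 13 were higher in all 3 libraries of set B than in all 3 of set A, against 35.5% of all tested genes, and 13 were lower, against 30.9% (66.4% in either direction). These sets were read from the same counts, so the difference is a description and was not tested. RRM2B was 2.32 times as high in set B as in set A, FAS 1.91 times, CCNG1 1.89 times, ZMAT3 1.80 times and MDM2 1.47 times. In the other direction, PHLDA3 was 1.79 times as high in set A as in set B, FDXR 1.75 times, GDF15 1.73 times, BAX 1.72 times, BBC3 1.69 times and CDKN1A 1.59 times. Genes induced by the same factor therefore stood on opposite sides, MDM2 against CDKN1A and FAS against BAX. APEX1-OE replicate 1, which lay farthest out on the first principal component, was the highest library for 15 members and the lowest for 11. The matching shares over all tested genes were not counted, so this cannot be read as particular to the members.

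**Figure D4:**
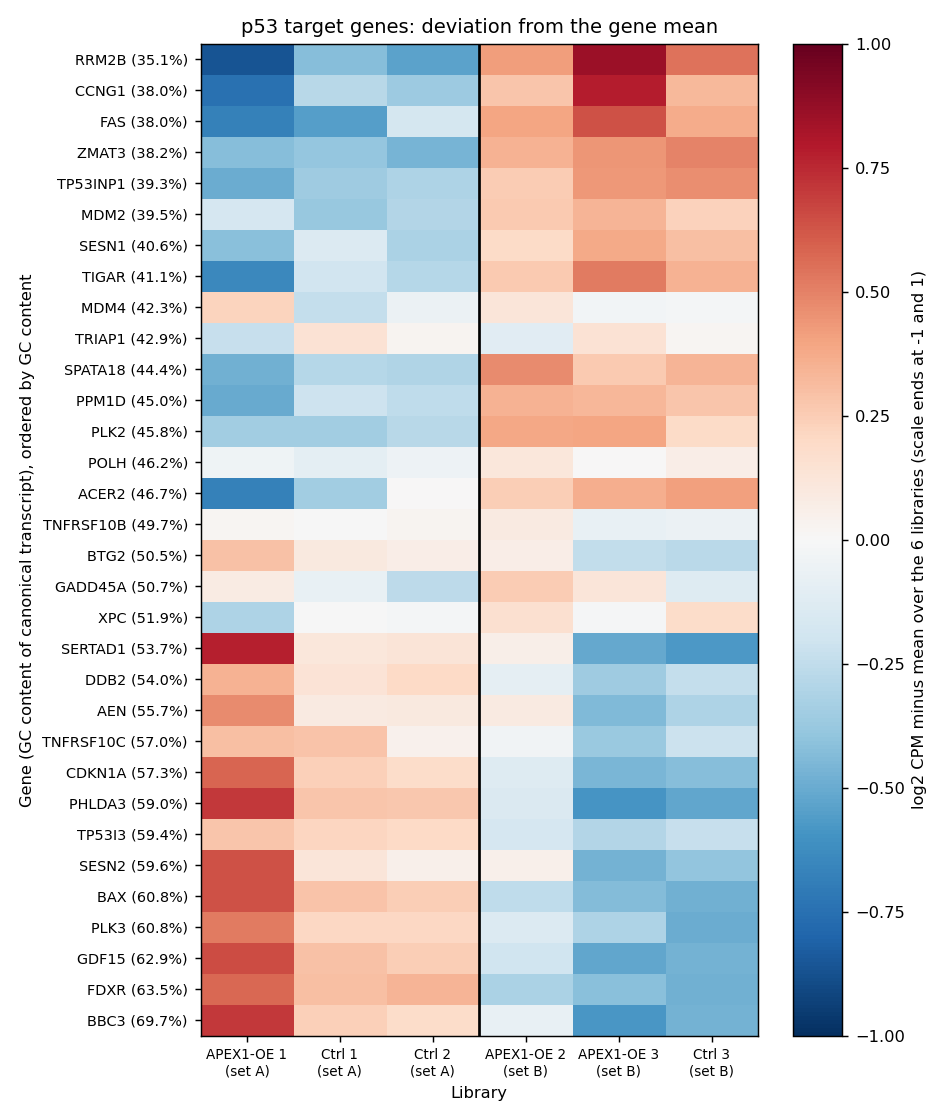
Log2 CPM of each gene minus its mean over the 6 libraries, with genes ordered by the GC content of the canonical transcript and libraries by set (the line parts set A from set B). Genes of low GC content such as RRM2B are blue in set A and red in set B, and genes of high GC content such as BBC3 the reverse, with APEX1-OE replicate 1 the strongest column.

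The side on which a member stood followed the base composition of its transcript. The 13 members higher in set B had a GC content between 35.1% and 46.7% (median 40.6%), and the 13 members lower in set B between 53.7% and 69.7% (median 59.4%), so these ranges did not overlap. Over all annotated genes the medians were similar, at 41.8% for genes higher in set B and 58.6% for genes lower in set B. There the ranges did overlap, from 28.6% to 74.9% and from 23.5% to 85.5%. Across the 32 members the correlation of GC content with the log2 difference between the sets was -0.92 (Pearson), and across the 16746 annotated genes it was -0.785. Genes share the same 6 libraries here and are not independent replicates. The 6 members whose sets overlapped were TNFRSF10B, GADD45A, XPC, BTG2, MDM4 and TRIAP1, which had a GC content between 42.3% for MDM4 and 51.9% for XPC. Set A holds 1 APEX1-OE and 2 Ctrl libraries and set B the reverse, so the sets move with the condition, and the part of base composition in the fold changes was not tested.

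**Figure D5:**
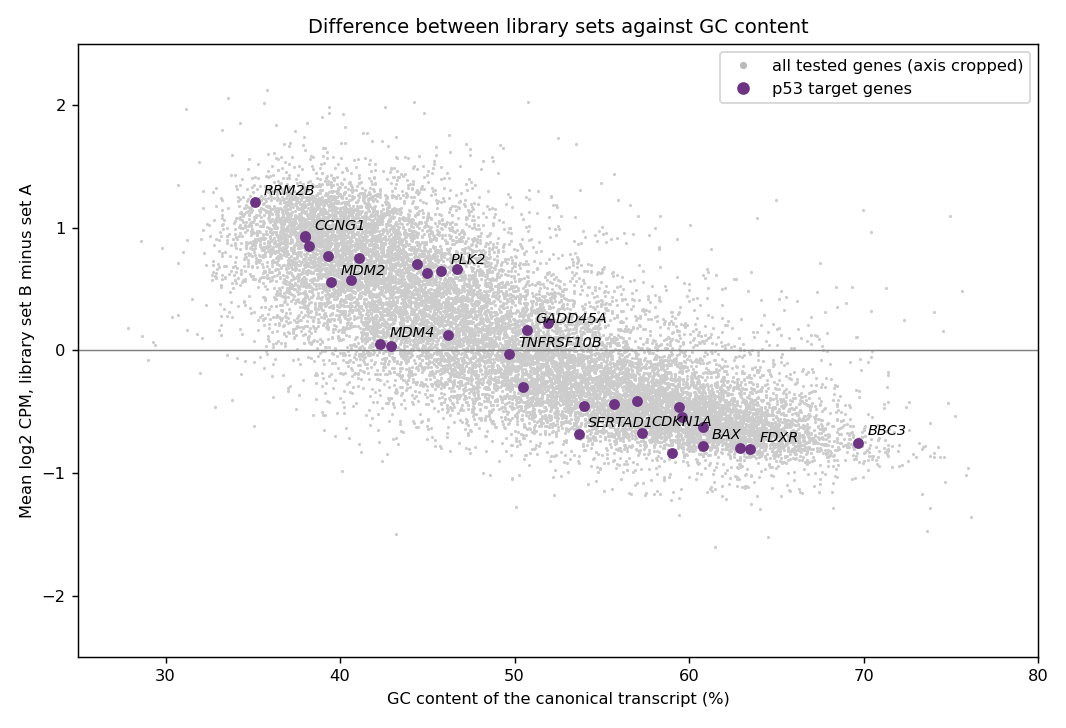
Difference in mean log2 CPM between library set B and library set A against the GC content of the canonical transcript, for all tested genes with an annotation (grey) and the 32 p53 target genes (purple). The purple points run from RRM2B at the upper left (35.1% GC) to BBC3 at the lower right (69.7% GC), within the grey cloud.

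With the library set as a term in the edgeR fit, again no member had an adjusted p under 0.05 (0 of 32, against 0.0236% of all tested genes), and the smallest adjusted p was 0.316. The sets were read from the same counts, so p values may be too small and intervals too narrow in every fit with this term. At an unadjusted p under 0.05, 10 of the 32 members were higher in APEX1-OE, against 8.61% of all tested genes, and 0 were lower, against 3.02% (11.6% in either direction). The log2 fold change was above 0 for 20 of the 32, against 51.6% of all tested genes. The 10 members were SERTAD1, GADD45A, SESN2, BAX, PHLDA3, BBC3, PLK3, CDKN1A, GDF15 and AEN. Their GC content lay between 50.7% and 69.7%. The log2 fold change in this fit was 0.52 (95% interval 0.24 to 0.79, unadjusted p = 0.00137, adjusted p = 0.316) for SERTAD1. For GADD45A it was 0.28 (95% interval 0.078 to 0.49, unadjusted p = 0.0104, adjusted p = 0.364), and for CDKN1A 0.26 (95% interval 0.048 to 0.46, unadjusted p = 0.0191, adjusted p = 0.374). Within set A, CDKN1A was higher in APEX1-OE replicate 1 than in the mean of Ctrl replicates 1 and 2 by 0.37 on the log2 scale, and within set B the mean of APEX1-OE replicates 2 and 3 was above Ctrl replicate 3 by 0.14. The same differences were 0.37 and 0.14 for BAX, 0.65 and 0.35 for SERTAD1, and 0.25 and 0.32 for GADD45A. The difference of GADD45A was larger in set B, while those of CDKN1A, BAX and SERTAD1 were larger in set A, where APEX1-OE replicate 1 is the only APEX1-OE library.

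The count changed without APEX1-OE replicate 1. In that setting, chosen after seeing the data, 0 of the 32 members had an unadjusted p under 0.05 in the fit with the library set, against 1.18% of all tested genes higher and 2% lower, and 0 were called, against 0.00589%. GADD45A was then at a log2 fold change of 0.28 (unadjusted p = 0.0567, adjusted p = 1.0 from edgeR) and CDKN1A at 0.11 (unadjusted p = 0.444, adjusted p = 1.0 from edgeR). With a correction of each library for GC content, also chosen after seeing the data, and the condition as the single term, 1 member had an unadjusted p under 0.05, beside 0 without the correction. It was GADD45A, at a log2 fold change of 0.33 (unadjusted p = 0.00807, adjusted p = 0.999 from edgeR), against 1.7% of all tested genes higher and 1.28% lower. None was called, against 0.00597%. With that correction and the library set together, 12 members were higher at an unadjusted p under 0.05, against 7.21% of all tested genes, and XPC was lower, against 4.31%, with none called, against 0.155%. The smallest adjusted p among the members was then 0.1001 for GADD45A, with 0.119 for SERTAD1, and MDM2 was at a log2 fold change of 0.19 (unadjusted p = 0.0262, adjusted p = 0.355 from edgeR).

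Other genes of the pathway were described from lists. Beside them, 0.00589% of all tested genes were called with the condition alone, 57.5% were above 0 and the median log2 fold change was 0.033. With the library set as a term, 51.6% of all tested genes were above 0. Of 25 listed cofactors and upstream genes, which include kinases, acetyltransferases and ribosomal proteins that bind MDM2, 22 were tested and none was called, with 18 above 0 and a median log2 fold change of 0.11. With the library set as a term 9 of the 22 were above 0, and 3 were lower at an unadjusted p under 0.05 (PRKDC, RPL5 and RPL23), against 3.02% of all tested genes. Of 30 further p53 targets, all tested, none was called by edgeR, with 19 above 0 and a median log2 fold change of 0.067. PMAIP1, the BH3-only protein NOXA, had the largest log2 fold change of this list at 0.70 (95% interval -0.062 to 1.45). With the library set as a term, 7 of the 30 were higher at an unadjusted p under 0.05, against 8.61% of all tested genes, and 1 was lower, against 3.02%. PMAIP1 is named after its values were seen. Genes that p53 lowers through CDKN1A and the DREAM complex, such as CDK1, CCNB1 and PLK1, were not called either (0 of 20), with a median log2 fold change of 0.15. Of them, 5 were higher at an unadjusted p under 0.05 with the library set as a term, against 8.61% of all tested genes, and 0 were lower, against 3.02%. These were CDC20, AURKB, FOXM1, MYBL2 and MCM5, with a GC content between 55.7% and 60.0%. The highest log2 fold change among them was that of MYBL2, at 0.46 (adjusted p = 0.302 from edgeR).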

How the data were processed

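The members and lists were chosen with earlier results of these data known. The authors made stranded paired-end mRNA libraries, trimmed the reads, aligned them to GRCh38 with TopHat2 and kept uniquely mapped reads. The authors deposited raw counts per gene and FPKM, the latter rounded to 2 decimals. Counting tool, annotation and strand setting are not given in the sources. Python 3.11.15 and R 4.3.3 were used, the latter with DESeq2 1.42.0, limma 3.58.1 and edgeR 4.0.16. filterByExpr (minimum count 10 and minimum total 15) kept 16971 genes. TMM factors were computed, and edgeR's quasi-likelihood test was fitted to all 6 libraries on condition alone, with Benjamini-Hochberg adjustment over all of these genes at a threshold of 0.05. Library totals were 28131955 to 41009197 counts. The most similar pair of libraries had a chi-square of 3.86 per degree of freedom, so no library was counted as a duplicate. The test was checked on simulated counts that held no library sets and no effect of GC content, so the check does not cover these features of the data.

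Values in every library are given for the best known members of each role, for members with an unadjusted p under 0.05 with the condition alone or with the library set, and for members whose groups did not overlap, with PLK2 and CCNG1 added after their values were seen. Some items are not reported here. On FPKM, limma used log2(FPKM + 1), and exact permutation of 3 against 3 libraries cannot give a p below 0.1. For the GC correction, each log2 CPM was taken as a deviation from the gene's mean over the 6 libraries. In each library a spline of these deviations on the GC content of the canonical transcript (GENCODE release 44) was fitted and corrected for. Alternatives covered other tests, normalizations and filters, each library left out, and the replicate number as a block.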

Additional observations from a re-analysis of the deposited data

How the results depend on the processing

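No p53 target gene was called under any of the 20 alternative settings, which covered DESeq2, limma-voom, 3 other normalizations, no filter on low counts, limma on FPKM, each library left out, the replicate block, the library set as a term and correction for GC content. Between 0 and 14 of the 32 members changed the sign of their log2 fold change, most of them (14) with the library set as a term and 11 without APEX1-OE replicate 1, but none of these values was called. Over all tested genes 1 was called, APEX1. The number was 10 without a filter on low counts, 4 with the library set as a term, 26 with the GC correction and the library set together, and 118 at an unadjusted p under 0.05. With each library left out it lay between 0 and 1, and the log2 fold change of APEX1 stayed between 2.36 and 2.46, with an adjusted p above the threshold without APEX1-OE replicate 2 or 3 or Ctrl replicate 1 or 2. The cause of these changes was not tested. With the replicate block 2 genes were called, APEX1 among them, and no member. Libraries of the same number deviated together for replicates 1 and 3 (correlations of 0.607 and 0.700) but not for replicate 2 (-0.521), so the number was not taken as a pairing. The 2 settings with the GC correction and the setting with the library set without APEX1-OE replicate 1 were chosen after seeing the data.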
